A study of Mus musculus with 6 samples.

Results

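The 45 genes described here encode the machinery that makes ribosomes: subunits and factors of RNA polymerase I, the core proteins of small nucleolar ribonucleoproteins, and the assembly factors of the small and large ribosomal subunits. They were chosen by gene symbol from a table of 51912 mouse gene IDs, and every symbol matched 1 ID. The samples were of EL4, a lymphoma line of mouse T cells labelled WT, exposed to the HDAC3 inhibitor RGFP966 at 10 µM for 24 h (3 libraries) or to vehicle alone (3 libraries). Whether the 3 libraries of a group stand for 3 cultures is not stated in the labels; p-values then measure only the spread between these libraries, which may be technical.

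Ribosome synthesis starts in the nucleolus, where RNA polymerase I copies the ribosomal DNA repeats into a long precursor RNA. Small nucleolar RNA-protein particles guide the chemical modification of that precursor, and the small-subunit processome and the large-subunit assembly factors fold and cut it while ribosomal proteins bind. The pathway is a large consumer of energy in dividing cells, and many of its genes are known targets of the transcription factor MYC. The values below are levels of messenger RNA. Output of the ribosomal DNA was not analysed here.

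Library totals were 12935443 to 14768540 counts with RGFP966 and 15380331 to 16451017 with vehicle. All 12 T-cell markers examined were above 1 CPM (counts scaled to a library total of 1000000), and their sum was 2958 to 3022 CPM with RGFP966 and 2856 to 2883 CPM with vehicle. In edgeR's test 4 of them were called higher with RGFP966 (Cd2, Cd5, Ptprc and Trac) and 3 lower (Lat, Cd247 and Zap70). These are 33.3% and 25.0% of the 12, where 11.4% of all tested genes were higher and 11.9% lower. The submitters' extraction text speaks of retinas, but the summed level of 16 retina markers was 5.34 to 5.69 CPM with RGFP966 and 4.83 to 5.43 CPM with vehicle. Of these, Pde6b averaged 2.57 CPM over all libraries, and Crx and Gnat1 were at 0. The sum of 6 fibroblast markers was 54.7 to 57.3 CPM with RGFP966 and 44.2 to 45.4 CPM with vehicle. Nearly all of it was Pdgfra, which was called higher with RGFP966 (a change of 22.1%, edgeR adjusted p = 2.10e-04). The collagen gene Col3a1 was at 0. B-cell markers summed to 1.63 to 1.98 CPM with RGFP966 and 1.82 to 2.68 CPM with vehicle, and myeloid markers to 9.23 to 9.76 CPM and 8.33 to 10.3 CPM, with Ms4a1 and Adgre1 at 0. The largest parts of these sums were Pax5 (mean 1.39 CPM) for B cells and Lyz2 (mean 8.06 CPM) for myeloid cells. Whether any of these markers has a part in the results was not tested. In bulk RNA, fewer cells of a type and less RNA per cell cannot be told apart.

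All 45 genes passed the filter on low counts. With RGFP966, 13 were lower and 4 higher at an adjusted p under 0.05 in edgeR's quasi-likelihood test, and 28 were not called. That is 28.9% lower and 8.89% higher, where 11.9% of all 13484 tested genes were lower and 11.4% higher, 23.3% in all. Over all genes the calls were 1543 higher and 1602 lower, and under upper-quartile factors 1838 and 1270, so 49.1% and 59.1% of calls were higher. The share of lower calls over all genes was greater at higher levels: among the 4863 tested genes at a mean of 50 CPM or more, a limit set after the values were seen, 21.0% were lower and 12.7% higher, while of the 44 ribosome biogenesis genes at that level 13 were lower (29.5%) and 4 higher (9.09%). The median log2 fold change (RGFP966 over vehicle) of the 45 genes was -0.07, and that of all tested genes was -0.0019; at 50 CPM or more the medians were -0.06 for the 44 genes and -0.03 for all. The direction of that median was the same in each of the 17 settings run, the one reported and 16 alternatives, with values from -0.08 to -0.04. The count of lower genes was less stable: it was 7 without RGFP966 library 3, 8 without vehicle library 1, 8 without vehicle library 3 and 8 after cyclic loess, which removes the trend of fold change with level. The count of higher genes was 2 without vehicle library 2.

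Changes were small. Among the called genes, changes ran from -22.4% to -6.86% in the lower genes and from 8.21% to 12.6% in the higher genes. Levels in the groups did not overlap for 20 genes that were lower with RGFP966 and 5 that were higher, where this held for 18.5% and 17.8% of all tested genes. The 28 genes not called lay between -0.14 and 0.10 on the log2 scale, 17 below 0 and 11 above, with standard errors of 0.03 to 0.06. The 45 genes together took 1.29%, 1.31% and 1.26% of all counts in RGFP966 libraries 1 to 3, against 1.30%, 1.32% and 1.31% in vehicle libraries 1 to 3. These ranges overlap, and the mean difference of -0.0244 percentage points compares with SDs of 0.0216 between RGFP966 libraries and 0.0124 between vehicle libraries. The difference was -0.0135 points without RGFP966 library 3 and -0.0371 points as a share of the TMM-scaled totals.

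**Figure D1:**
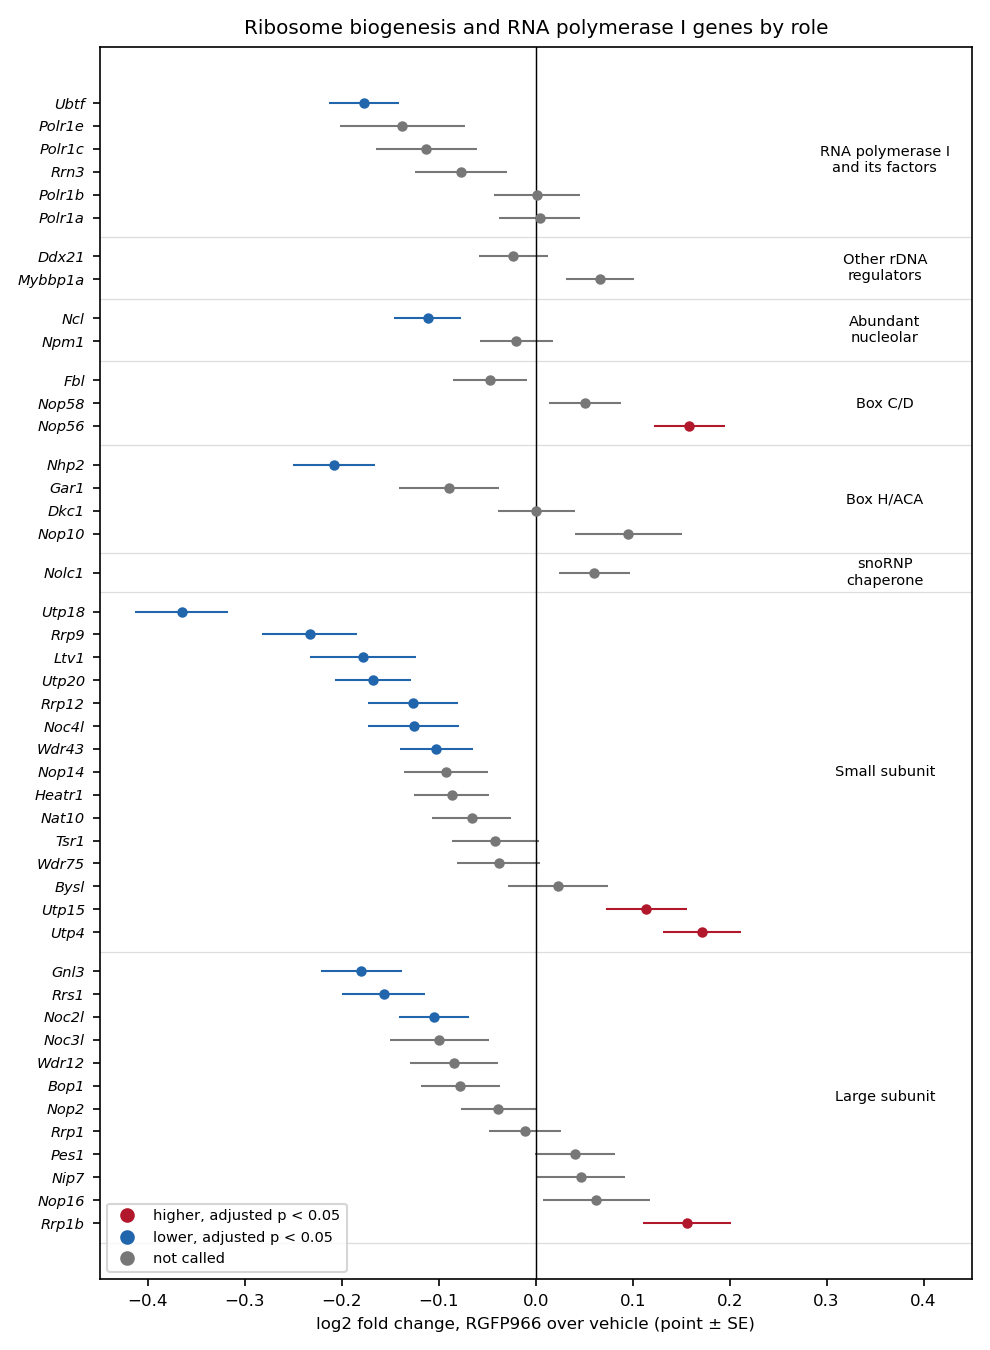
Log2 fold change (RGFP966 over vehicle, x axis) with its standard error for each of the 45 genes, grouped by role down the page. Red and blue points are genes called higher and lower, and grey points were not called; small-subunit genes hold both the lowest value, Utp18 at -0.37, and the highest, Utp4 at 0.17.

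RNA polymerase I and its factors had 6 genes in the list, of which 1 fell (16.7%) and the other 5 were not called. Of all tested genes at 50 CPM or more, 21.0% were lower. Ubtf encodes the upstream binding factor, an architectural protein that coats active ribosomal DNA. Ubtf (chromosome 11, 102304560 to 102319742, minus strand, ENSMUSG00000020923) measured 339, 337 and 343 CPM in RGFP966 libraries 1 to 3, against 384, 379 and 389 CPM in vehicle libraries 1 to 3. Every RGFP966 library was below every vehicle library, by more than the spread within either group. The log2 fold change was -0.18 ± 0.04 (SE, edgeR adjusted p = 1.93e-04), a change of -11.5%.

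The genes of the 2 largest subunits were not called. Polr1a, the largest subunit, measured 172, 160.1 and 167 CPM with RGFP966 and 167, 159 and 171 CPM with vehicle (log2 fold change 0.00 ± 0.04 SE, edgeR adjusted p = 0.962). Polr1b, the second largest, measured 109.9, 114 and 108 CPM with RGFP966 and 111, 109 and 111 CPM with vehicle (edgeR adjusted p = 0.988). The groups overlapped for both genes. Polr1c, a subunit shared with RNA polymerase III, was at 73.5, 73.8 and 65.9 CPM with RGFP966, against 76.0, 76.4 and 77.9 CPM with vehicle; the groups did not overlap, but the gene was not called (-0.11 ± 0.05, edgeR adjusted p = 0.114). Rrn3, the factor that makes the polymerase competent to start, measured -0.08 ± 0.05 (edgeR adjusted p = 0.258). Polr1e, a subunit that is not part of the catalytic core, measured -0.14 ± 0.06 (edgeR adjusted p = 0.119), and 1 library decided its call: without RGFP966 library 2 the value was -0.20 (adjusted p = 0.0302), and without vehicle library 3 it was -0.19 (adjusted p = 0.0466). Among the other regulators of ribosomal DNA, the RNA helicase gene Ddx21 measured -0.02 ± 0.04. Mybbp1a, a nucleolar MYB-binding protein, was at 749, 736 and 724 CPM with RGFP966, against 699.6, 701 and 709 CPM with vehicle. Its groups did not overlap, yet it was not called (0.07 ± 0.03, edgeR adjusted p = 0.174); under upper-quartile factors it was (0.09, adjusted p = 0.0449).

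The small subunit group of 15 genes had 7 falls (46.7%) and 2 rises (13.3%). Among all tested genes at 50 CPM or more these shares were 21.0% and 12.7%. Utp18, a WD-repeat protein of the processome, changed most of all 45 genes. Utp18 (chromosome 11, 93859243 to 93885766, minus strand, ENSMUSG00000054079) measured 77.1, 81.2 and 78.5 CPM in RGFP966 libraries 1 to 3, against 97.5, 105 and 102 CPM in vehicle libraries 1 to 3. The highest RGFP966 library lay well below the lowest vehicle library. The log2 fold change was -0.37 ± 0.05 (SE, edgeR adjusted p = 5.88e-08), a change of -22.4%, and it was called in every setting.

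Rrp9 and Utp20 fell less. Rrp9, a protein of the small nucleolar particle that nucleates the processome, measured 77.6, 76.3 and 76.9 CPM with RGFP966, against 86.8, 93.1 and 91.3 CPM with vehicle (-0.23 ± 0.05 SE, edgeR adjusted p = 2.56e-04). Utp20, a very large scaffold protein, measured 251, 243 and 247 CPM with RGFP966, against 276, 267 and 289 CPM with vehicle (-0.17 ± 0.04, edgeR adjusted p = 9.19e-04). Neither gene's groups overlapped. Ltv1, a late assembly factor of the small subunit, measured 88.0, 87.7 and 78.3 CPM with RGFP966 and 87.8, 104 and 94.97 CPM with vehicle (-0.18 ± 0.05, edgeR adjusted p = 0.0148). The lowest vehicle library was inside the RGFP966 range, and the call was lost without RGFP966 library 3 (adjusted p = 0.188), vehicle library 2 (0.138) or vehicle library 3 (0.0536), in the DESeq2 Wald test (0.0641) and after cyclic loess (0.0661).

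A further 3 small-subunit genes were called only just. Of the 16 alternatives, Rrp12 kept its call in 5, Wdr43 in 3 and Noc4l in 2. Upper-quartile factors were among the settings that removed each call (edgeR adjusted p = 0.0977 for Rrp12, 0.108 for Noc4l and 0.117 for Wdr43). Rrp12, known from yeast for export of pre-ribosomes, measured -0.13 ± 0.05 (edgeR adjusted p = 0.0393). Leaving out RGFP966 library 2 or 3, or vehicle library 1 or 3, gave it adjusted p-values of 0.110, 0.171, 0.110 and 0.179. Noc4l, whose yeast relative acts with Nop14 in nuclear maturation of the small subunit, measured -0.13 ± 0.05 (edgeR adjusted p = 0.0436). Its call was lost without any 1 library other than RGFP966 library 2: 0.269 and 0.0676 without RGFP966 libraries 1 and 3, and 0.0655, 0.0786 and 0.121 without vehicle libraries 1, 2 and 3. Wdr43, which links processing to transcription of the precursor, measured -0.10 ± 0.04 (edgeR adjusted p = 0.0418). Leaving out a library gave Wdr43 adjusted p-values of 0.142 and 0.203 (RGFP966 1 and 3) and of 0.0743, 0.0697 and 0.118 (vehicle 1, 2 and 3).

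The rises in the small subunit group were Utp4 and Utp15, which belong to the same transcription-linked subcomplex as Wdr43, Heatr1 and Wdr75. Utp4 (chromosome 8, 106893636 to 106923088, plus strand, ENSMUSG00000041438) measured 209, 209.9 and 200.2 CPM in RGFP966 libraries 1 to 3, against 182, 188 and 179 CPM in vehicle libraries 1 to 3. All RGFP966 libraries were above all vehicle libraries (0.17 ± 0.04 SE, edgeR adjusted p = 9.88e-04). Utp15 measured 153, 146 and 147 CPM with RGFP966, against 137, 136 and 139.7 CPM with vehicle (0.11 ± 0.04, edgeR adjusted p = 0.0403). The groups of Utp15 did not overlap, but its call was lost without RGFP966 library 1, 2 or 3 (adjusted p = 0.199, 0.0546 and 0.0575) and without vehicle library 1 or 2 (0.100 and 0.0760), and in the DESeq2 Wald test (0.0675). Heatr1 and Wdr75 measured -0.09 ± 0.04 and -0.04 ± 0.04 and were not called (edgeR adjusted p = 0.0981 and 0.571). Of the remaining genes, Nop14, the RNA acetyltransferase gene Nat10, Tsr1 and Bysl lay between -0.09 and 0.02 and were not called. Exons of Srr overlap 32.3% of the Tsr1 exons.

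**Figure D2:**
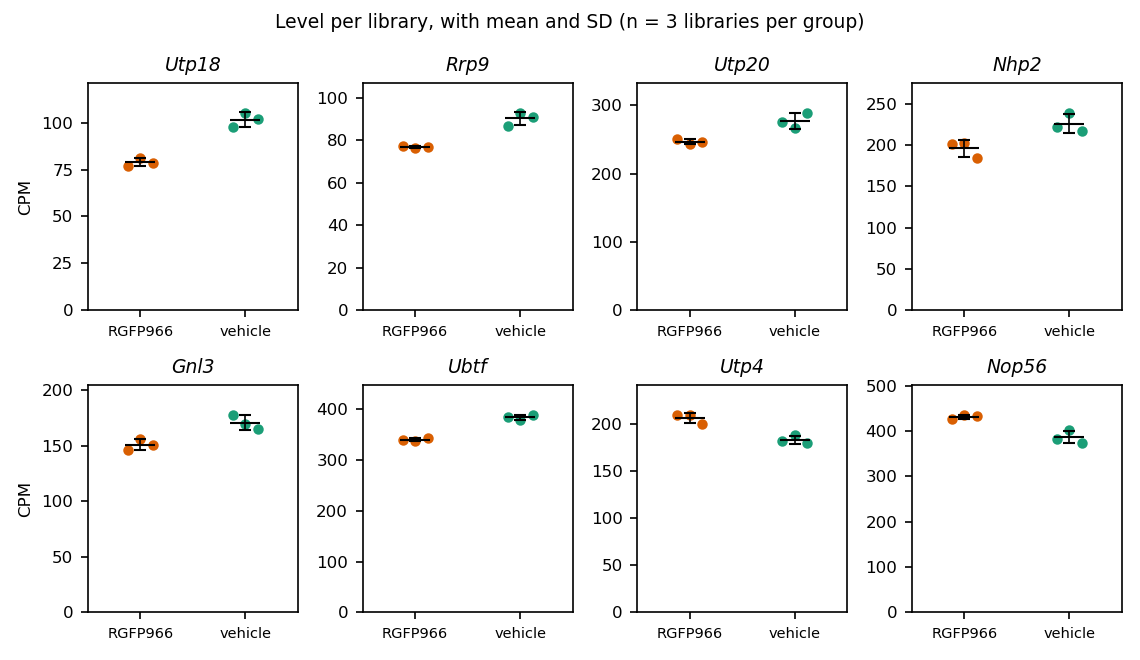
Level in CPM (y axis from 0) of the 8 genes that were called in every setting, 1 point per library, with mean and SD of the 3 RGFP966 (orange) and 3 vehicle (green) libraries. The groups are apart in each panel, with 6 genes lower and Utp4 and Nop56 higher with RGFP966.

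The large subunit group of 12 genes had 3 falls (25.0%) and 1 rise (8.33%). Among all tested genes at 50 CPM or more these shares were 21.0% and 12.7%. Gnl3 encodes nucleostemin, a nucleolar GTP-binding protein of proliferating cells. It measured 146, 156 and 151 CPM in RGFP966 libraries 1 to 3, against 178, 169.7 and 165 CPM in vehicle libraries 1 to 3 (-0.18 ± 0.04 SE, edgeR adjusted p = 1.06e-03), with no overlap. Rrs1, which in yeast brings the smallest ribosomal RNA into the large subunit, measured 127, 127 and 125 CPM with RGFP966, against 146, 135 and 141 CPM with vehicle (-0.16 ± 0.04, edgeR adjusted p = 5.17e-03). The groups were apart, and the call was lost without vehicle library 1 (-0.13, adjusted p = 0.0642). Noc2l, also known as an inhibitor of histone acetyltransferases, measured 381, 376 and 374 CPM with RGFP966, against 400.5, 401 and 416 CPM with vehicle (-0.10 ± 0.04, edgeR adjusted p = 0.0284). Samd11 overlaps 20.9% of its exons, and its call was lost without RGFP966 library 1, 2 or 3 (adjusted p = 0.0672, 0.0743 and 0.129) without vehicle library 1 or 3 (0.0598 and 0.162) and under upper-quartile factors (0.0859).

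The higher gene of this group was Rrp1b, a nucleolar protein related to Rrp1. Rrp1b measured 139.9, 133 and 144 CPM with RGFP966, against 132, 116 and 126 CPM with vehicle (0.16 ± 0.05 SE, edgeR adjusted p = 9.04e-03). The lowest RGFP966 library was just above the highest vehicle library. Its call was lost without RGFP966 library 3 (0.14, adjusted p = 0.0640) and without vehicle library 2 (0.11, adjusted p = 0.0923). Its relative Rrp1 measured -0.01 ± 0.04 (edgeR adjusted p = 0.872), a value that changed sign with the scaling, to 0.01 under upper-quartile factors. Bop1, Pes1 and Wdr12, which form 1 complex needed for the large subunit, measured -0.08, 0.04 and -0.08, each with SE of 0.04 to 0.05, and none was called by edgeR (adjusted p = 0.173, 0.529 and 0.184). Nop2, Noc3l and Nip7 lay between -0.10 and 0.05 and were not called. Nop16 measured 87.6, 90.1 and 74.1 CPM with RGFP966, against 78.3, 80.5 and 81.9 CPM with vehicle. RGFP966 library 3 was its lowest value of all, and without that library its log2 fold change was 0.15 (adjusted p = 0.0449), against 0.06 ± 0.06 (edgeR adjusted p = 0.464) with it.

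Box C/D particles methylate ribosomal RNA. Of the 3 core protein genes of these particles, 1 rose (33.3%), beside 12.7% of all tested genes at 50 CPM or more. Nop56 (chromosome 2, 130274430 to 130279313, plus strand, ENSMUSG00000027405) measured 426, 435 and 432 CPM in RGFP966 libraries 1 to 3, against 383, 401 and 375 CPM in vehicle libraries 1 to 3. The groups were apart, and the log2 fold change was 0.16 ± 0.04 (SE, edgeR adjusted p = 9.32e-04). Fbl, the methyltransferase fibrillarin, measured 229, 237 and 233 CPM with RGFP966, against 244, 238 and 239 CPM with vehicle, and was not called (-0.05 ± 0.04, edgeR adjusted p = 0.416). Its partner Nop58 measured 0.05 ± 0.04 (edgeR adjusted p = 0.36). Of the Nop56 sequence, 18.6% of 50-base words also occur in other annotated genes, and the figure for Fbl was 19.7%.

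Box H/ACA particles convert uridine to pseudouridine, and 1 of their 4 protein genes fell (25.0%). Of all tested genes at 50 CPM or more, 21.0% were lower. Nhp2 (chromosome 11, 51619735 to 51623714, plus strand, ENSMUSG00000001056), an RNA-binding subunit that is also found in telomerase, measured 201, 202 and 184 CPM in RGFP966 libraries 1 to 3, against 221, 239 and 217 CPM in vehicle libraries 1 to 3. The groups did not overlap (-0.21 ± 0.04 SE, edgeR adjusted p = 1.89e-04). Dkc1, the pseudouridine synthase dyskerin, was at 237, 242 and 228 CPM with RGFP966, against 231, 230.4 and 245 CPM with vehicle, and the groups overlapped (edgeR adjusted p = 0.995). Gar1 measured -0.09 ± 0.05 (edgeR adjusted p = 0.223) and Nop10 0.10 ± 0.06 (edgeR adjusted p = 0.228). Nolc1, a chaperone of both kinds of particle, measured 0.06 ± 0.04 (edgeR adjusted p = 0.248).

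The 2 most abundant genes per length were those of the nucleolar proteins nucleophosmin and nucleolin. As levels per kilobase of annotated exon, Npm1 stood at 789.7 CPM per kb with RGFP966 and 801 CPM per kb with vehicle. Ncl stood at 203 CPM per kb with RGFP966 and 219 CPM per kb with vehicle. Nhp2 came next, at 171 CPM per kb with RGFP966 and 197 CPM per kb with vehicle. The median of the 45 genes over all libraries was 41.4 CPM per kb. The length used joins the exons of all annotated transcripts: 10188 bases for Ncl, 2665 for Npm1 and 1146 for Nhp2. Gaps between genes per length therefore depend on the annotation. Without length, Ncl and Npm1 were alike, at means of 2150 and 2119 CPM over all libraries. Ncl (chromosome 1, 86344719 to 86359400, minus strand, ENSMUSG00000026234) measured 2055, 2147 and 1999 CPM with RGFP966, against 2213, 2243 and 2242 CPM with vehicle (-0.11 ± 0.03 SE, edgeR adjusted p = 0.0132). Its groups were apart, but the call was lost without RGFP966 library 1 (adjusted p = 0.0885), RGFP966 library 3 (0.147) or vehicle library 3 (0.0692). Npm1 measured 2086, 2214 and 2014 CPM with RGFP966, against 2044, 2253 and 2104 CPM with vehicle, and its groups overlapped (-0.02 ± 0.04, edgeR adjusted p = 0.759). The sign of Npm1 turned to 0.0031 under upper-quartile factors. Of its sequence 24.3% occurs in other annotated genes, Gm9118 most.

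**Figure D3:**
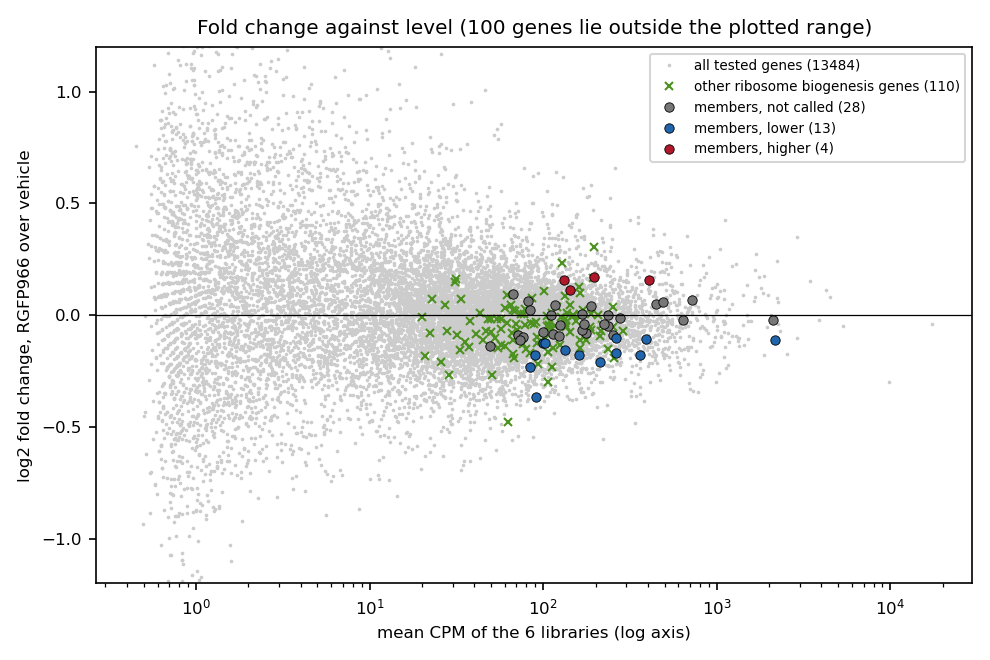
Log2 fold change (RGFP966 over vehicle, y axis) against mean level (CPM, log x axis) for all 13484 tested genes in grey, with the 45 ribosome biogenesis genes as circles and 110 other genes of the pathway as crosses; 100 genes of the whole table lie beyond 1.2 on either side. Both sets sit at medium to high levels and close to 0, more of them below it than above.

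A ratio of counts within a library does not depend on how libraries are scaled. For genes of 1 particle or 1 step, 4 such ratios were taken, chosen after the values were seen and therefore given with no test. Each sets a called gene against a gene that was not called or was called in the other direction. Groups that lie apart in these ratios therefore follow largely from that choice. How often the groups lie apart over all pairs of genes was not computed. Nop56 counts per Fbl count were 1.86, 1.84 and 1.86 in RGFP966 libraries 1 to 3, against 1.57, 1.68 and 1.56 in vehicle libraries 1 to 3. Nhp2 counts per Dkc1 count were 0.849, 0.836 and 0.807 with RGFP966, against 0.959, 1.04 and 0.887 with vehicle. In both pairs the 3 RGFP966 libraries were on 1 side of the 3 vehicle libraries. Utp18 counts per Utp4 count were 0.368, 0.387 and 0.392 with RGFP966, against 0.536, 0.560 and 0.568 with vehicle. Ubtf counts per Polr1a count were 1.97, 2.104 and 2.06 with RGFP966, against 2.29, 2.38 and 2.27 with vehicle. These groups did not overlap either.

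**Figure D4:**
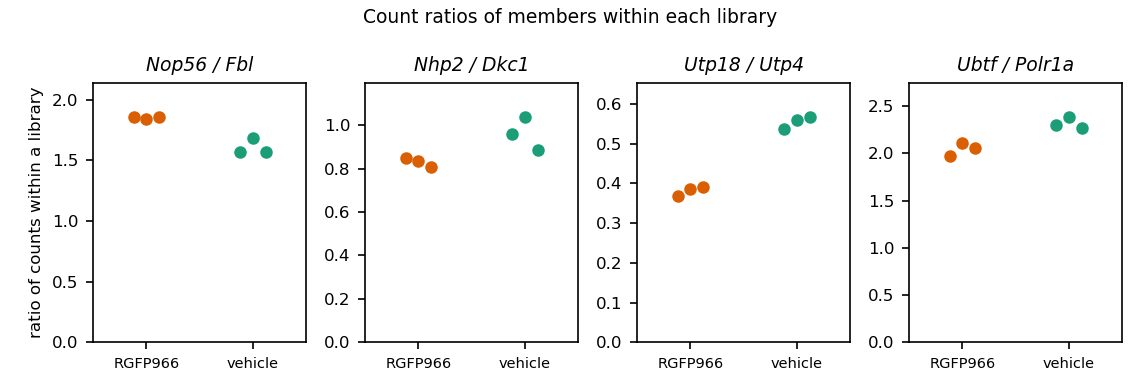
Ratio of the counts of 2 genes within the same library (y axes from 0), 1 point per library, for RGFP966 (left, orange) and vehicle (right, green). Nop56 / Fbl was higher and Nhp2 / Dkc1, Utp18 / Utp4 and Ubtf / Polr1a were lower in all 3 RGFP966 libraries than in any vehicle library. The pairs were chosen after the values were seen.

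The rest of the pathway was read from a list of further genes, of which 111 matched an ID and 110 were tested. Utp25 and Riok2 were listed but matched no ID. The matched gene that was not tested, Wdr74, had 0 counts in all 6 libraries. By counting error alone that allows at most 0.203 to 0.232 CPM with RGFP966 and 0.182 to 0.195 CPM with vehicle. The annotation used for counting is not stated, so a count of 0 does not show that Wdr74 was silent. With RGFP966, 19 of the 110 were lower (17.3%) and 4 higher (3.64%), beside 11.9% and 11.4% of all tested genes, and the median log2 fold change was -0.05. At 50 CPM or more, 17 of 88 were lower (19.3%) and 4 higher (4.55%), beside 21.0% and 12.7% of all tested genes at that level, so the share of lower genes was not above that of all genes at like levels. The count of lower genes was 12 without RGFP966 library 3, and that of higher genes was 7 under upper-quartile factors and 7 after cyclic loess. By role, 10 of 47 large-subunit genes fell and 2 rose, 5 of 38 small-subunit genes fell and 1 rose, and 2 of 10 RNA polymerase I genes fell and 1 rose. Of the further genes for core or assembly proteins of small nucleolar particles, 2 of 9 fell. The 6 chromatin regulators of ribosomal DNA, Baz2a among them, lay between -0.13 (Sirt7, edgeR adjusted p = 0.0808) and 0.03 and were not called.

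Npm3, a relative of nucleophosmin, had the smallest adjusted p among the falls. It measured 52.0, 54.0 and 50.9 CPM with RGFP966, against 67.7, 71.5 and 78.7 CPM with vehicle (-0.48 ± 0.06 SE, edgeR adjusted p = 5.53e-09). The groups were well apart, and 25.6% of its sequence is shared with other genes, Npm3-ps1 most. Pwp2, a processome protein of the same yeast subcomplex as Utp18, fell by 0.30 ± 0.05 on the log2 scale (edgeR adjusted p = 1.47e-06). Nop53 and Ebna1bp2, both large-subunit factors, fell by 0.23 (adjusted p = 1.04e-04) and 0.19 (adjusted p = 1.80e-04). Las1l, which encodes an endonuclease that cuts the precursor of the large-subunit RNAs, rose. Las1l measured 213, 221 and 212 CPM with RGFP966, against 177, 170.4 and 176 CPM with vehicle (0.30 ± 0.04 SE, edgeR adjusted p = 4.30e-08). Pdcd11, a scaffold for both subunits known as Rrp5 in yeast, rose by 0.23 (adjusted p = 5.25e-05), and Gnl3l, a relative of nucleostemin, by 0.17 (adjusted p = 2.22e-03). Polr1d, a subunit shared by RNA polymerases I and III, rose by 0.13 (edgeR adjusted p = 0.0221), a call that was lost without RGFP966 library 1 (adjusted p = 0.0662), RGFP966 library 2 (0.139) or vehicle library 3 (0.120). Gnl3 fell while Gnl3l rose; 1.9% of 50-base words of Gnl3l occur in another annotated gene.

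Promoters of the genes were searched for short motifs, which had not been used to choose the genes. Promoter windows of 300 bases, from 250 before to 50 after the transcript start, were found in the RefSeq table (GRCm38.p6) for 40 of the 45 genes. For 34 of the 40 genes, a stretch of the transcribed part of the window occurred in the gene's own transcripts. The E-box CACGTG, the site that MYC binds with its partner MAX, occurred in the windows of 10 of these 40 genes (25.0%). Of these 10, Nop2 and Mybbp1a lacked the match to their own transcripts. The E-box occurred in 11.7% of the 9356 tested genes with a window, 8.09% of all 27025 genes with a window and 7.15% of all 32851 windows. By call, it was found in 4 of 11 lower genes, 1 of 4 higher genes and 5 of 25 genes not called. It is its own reverse complement, so both strands give the same matches. The sites of the 5 called genes are printed because they stand in promoters of genes that moved in both directions; capitals mark the E-box, and each sequence runs 5′ to 3′ on the gene's strand with up to 10 bases on each side.
Utp18, lower, 20 bases before the transcript start at chr11:93885771-93885796, minus strand: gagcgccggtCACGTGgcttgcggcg
Utp20, lower, in the transcribed part at chr10:88826765-88826787, minus strand: gcactaactaCACGTGaggaaaa
Ltv1, lower, in the transcribed part at chr10:13193094-13193119, minus strand: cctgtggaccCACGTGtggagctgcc
Wdr43, lower, in the transcribed part at chr17:71616222-71616247, plus strand: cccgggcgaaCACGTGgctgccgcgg
Utp4, higher, in the transcribed part at chr8:106893645-106893670, plus strand: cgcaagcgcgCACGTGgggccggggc

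Utp18, with the largest fall of the 45 genes, and Utp4, with the largest rise, thus both hold an E-box near the start. Other motifs were searched on both strands, and 3 of them are given here. The ETS core CCGGAAG was in 15 of the 40 windows (37.5%), against 21.5% of tested genes, and CCAAT was in 14 (35.0%), against 43.3%. By call, CCGGAAG was in 4 of 11 lower, 1 of 4 higher and 10 of 25 genes not called. CCAAT was in 6 of 11 lower, 3 of 4 higher and 5 of 25 genes not called. A further motif was also searched, had no match in these 40 windows and is not printed. The letters AAGATGGC were in 0 of the 40 windows, against 5.68% of tested genes; this says only that these letters are not in these windows. A match describes the sequence and was not tested as a site. Small nucleolar RNA genes lay inside 7 of the 45 genes on the same strand: Nop56 held 5, Nop58 held 4, and Gnl3, Ncl and Wdr43 held 3 each, with 2 in Tsr1 and 1 in Dkc1. Of these 7 hosts 1 rose and 3 fell, and of the other 38 genes 3 rose and 10 fell. Among all tested genes at 50 CPM or more, 12.7% were higher and 21.0% lower. Of the hosts that fell, Ncl and Wdr43 lost their calls in some settings, and hosts were not tested against the other genes.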

How the data were processed

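The authors deposited 1 table of raw read counts per gene, 1 column per library. The submitters' processing notes name the build mm10 and, with no roles, HTSeq 0.6.0, HISAT2 2.1.0, TopHat2, Bowtie2 2.2.3 and CASAVA. Neither annotation release nor strandedness is stated in the sources used here, so reads of overlapping genes cannot be told apart.

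All genes were fitted in edgeR 4.0.16 (R 4.3.3) with group as the only term, filterByExpr, TMM scaling and robust quasi-likelihood F tests, adjusted by Benjamini-Hochberg over 13484 genes and called at an adjusted p under 0.05. Standard errors were derived from the fold change and F. CPM use TMM-scaled totals. The fits were tested on simulated data. The outcome is not given, so nothing is concluded from that test about changes as small as those called here. Symbols, positions and exon lengths came from GENCODE M21 (mm10); 51633 IDs had a symbol. Overlap and shared 50-base words were measured in its exons and transcripts. Counting limits (3 counts for a count of 0) cover counting error only.

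The members and lists were chosen with earlier results of these data known. All 45 genes are accounted for. Of the other pathway genes, those named have the smallest adjusted p, up to 4 in each direction, at a mean of at least 5 CPM and with groups apart; Wdr74, Baz2a, Sirt7 and the genes of the closing observations were named after their values were seen. Alternatives were a replicate block, other scalings and filters, DESeq2 1.42.0, limma 3.58.1 with voom or cyclic loess, and leaving out each library.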

Additional observations from a re-analysis of the deposited data

How the results depend on the processing

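Over 16 alternatives, 8 of the 17 calls among the 45 genes were kept in every one: Utp18, Rrp9, Utp20, Nhp2, Gnl3, Ubtf, Utp4 and Nop56. The count of lower genes (13) was 8 after cyclic loess and 7 to 12 when each library was left out, and that of higher genes (4) was 2 to 4. Among the other pathway genes, the count of higher genes (4) was 7 under upper-quartile factors and 7 after cyclic loess, and that of lower genes (19) was 12 to 18 without 1 library. The median of the 45 genes (-0.066) was -0.043 under upper-quartile factors, -0.051 at a minimum mean of 5 CPM and -0.041 after cyclic loess, and -0.079 to -0.045 without 1 library; the cause of these shifts was not tested. Over all genes, 1543 were higher and 1602 lower, against 1838 and 1270 under upper-quartile factors. Signs changed only in genes that were not called in either fit. With no filter Dkc1 measured -0.0017 and Polr1b -0.00081; upper-quartile factors gave Rrp1 0.012, Npm1 0.0031 and Ddx21 9.3e-05; and Rrp1 was 0.0031 with total count only, 0.0039 at a minimum of 5 CPM and 0.0094 after cyclic loess. Without 1 library, Dkc1 ran from -0.019 to 0.0354, Rrp1 from -0.023 to 0.0094, Npm1 from -0.059 to 0.020, Polr1a from -0.027 to 0.032, Polr1b from -0.020 to 0.0257, Ddx21 from -0.043 to 0.0044, Bysl from -0.036 to 0.073 and Tsr1 from -0.077 to 0.00094. Libraries of the same number did not deviate together (correlations of -0.018, 0.013 and 0.0084). With 3 libraries a group, this cannot exclude that samples of the same number were paired. With the replicate block, 1667 of all genes were higher and 1764 lower, against 1543 and 1602 without it. In that fit 13 of the 45 genes were lower and 4 higher, and of the other pathway genes 23 were lower and 4 higher. Differences under about 0.1 on the log2 scale are at the edge of what 3 libraries a group resolve here.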

Other observations

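In yeast, Utp18 and Pwp2 belong to 1 subcomplex of the small-subunit processome together with the relatives of Tbl3, Utp6, Wdr3 and Wdr36. The other 4 genes of that subcomplex, named after their values were seen, measured -0.05 ± 0.05 (SE) for Tbl3, -0.10 ± 0.04 for Utp6, -0.05 ± 0.04 for Wdr3 and 0.00 ± 0.04 for Wdr36 on the log2 scale, RGFP966 over vehicle, and none was called by edgeR (adjusted p = 0.527, 0.0750, 0.468 and 0.965). RGFP966 libraries of Utp6 and Wdr3 were all below those of vehicle, while the groups of Tbl3 and Wdr36 overlapped.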
